A study of Rattus norvegicus with 50 samples.

Results

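Chemokines and their receptors were examined in the rat liver after traumatic brain injury, as the genes whose symbol begins with Ccl, Cxcl, Cx3c or Xcl (ligands), with Ccr, Cxcr or Xcr (receptors) or with Ackr (atypical receptors) followed by a number, without Cxcl9, Cxcl10 and Cxcl11. Of 54 such genes in the annotation 49 had a probe that carried a single gene symbol, and these are 49 of the 14506 genes tested. They were 30 ligands, 17 receptors including Cx3cr1, and 2 atypical receptors, each measured by 1 probe. The others were not analysed here.

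Livers came from 50 male Sprague Dawley rats of about 3 months, 5 in each of 10 groups, and each animal gave 1 array. Intact sham animals formed 1 group. The other 45 animals had a controlled cortical impact, which bruises the cortex with a driven piston. They received saline vehicle, erythropoietin (EPO, 2500 IU/kg), the growth factor of red cell precursors, or anakinra (100 mg/kg), which blocks the receptor of interleukin-1. Livers were collected at 24 h, 72 h or 7 days. RNA was from punches of the median lobe, a mixture of all cells of the tissue, so fewer cells of a type and less RNA per cell cannot be told apart. No time and no vehicle is given for the sham animals, so injury cannot be told apart from saline, handling or time of collection, and the schedule of dosing is not given in the sources used here.

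Chemokines are small secreted proteins that guide leukocytes by binding receptors coupled to G proteins. CXC ligands such as Cxcl1 and Cxcl2 act on Cxcr2 and draw neutrophils, while CC ligands such as Ccl2 act on Ccr2 and draw monocytes. In the liver, Kupffer cells, endothelial cells, stellate cells and hepatocytes can all make chemokines, and the receptors are carried largely by blood leukocytes and resident immune cells.

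All values are log2 expression values after robust multi-array averaging (RMA), and a difference is the first group minus the second on that scale. A gene passed where its p from limma, adjusted by the Benjamini-Hochberg method over all 14506 genes, was under 0.05. Values of different genes come from different probes and are not set against each other. The arrays had medians from 6.66 to 6.89. The spread of values within an array, taken as the SD of its probes, had a median of 2.11. The 5 arrays with the lowest spread, 2.04 or less, are called narrow arrays here. Their number was set, and no clear break marks them off, as the next lowest spread was 2.06. The narrow arrays were array 3 of the vehicle group at 24 h, 2 and 5 of vehicle at 72 h, and array 3 of both vehicle and EPO at 7 days. In each of the 4 that belong to vehicle groups, 37 to 39 of the 49 chemokine and receptor genes lay above the mean of the arrays of the group that were not narrow, so the main results against vehicle are given with and without them. In the narrow EPO array it was 30 of the 49. At 72 h only vehicle arrays are left out in this way, while EPO array 1, with a spread of 2.07, is kept. The hepatocyte gene Alb read 13.89 to 14.04 over the arrays, and the tissue label held in this check.

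Most of the 49 genes differed little between groups. Many were dim, since a group mean lay above the median of all gene means for 18 of the 49, beside 7679 of all 14506 genes. RMA can compress differences of dim genes. Their group means spanned a median of 0.28, beside 0.27 over all genes, and the span was under 0.50 for 43 of them. The exceptions were Cxcl13, Cxcl1, Cxcr2, Ccl2, Ccl6 and Ccr2, whose group means spanned 1.28, 1.198, 1.05, 0.98, 0.95 and 0.82. Among these, Cxcl13, Cxcl1 and Ccr2 also varied most within groups, with residual standard deviations of 0.67, 0.54 and 0.42, beside a median of 0.18 over the 49 genes. The narrowest span was that of Ccr7, a receptor of lymphocytes and dendritic cells, at 0.14.

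In the F test over all 10 groups 4 of the 49 genes passed, beside 5.67% of all genes. They were Cxcr2 (adjusted p = 0.000421), Ccl6 (0.00128), Ccl2 (0.00644) and Cxcl1 (0.0367). At an unadjusted p under 0.05 there were 11 of 49, beside 18.6%. At single times, genes of the 49 passed in the comparisons of EPO livers at 72 h. Against vehicle at 72 h, Cxcr2, Ccl2 and Ccl6 were higher, 3 of 49 beside 2.18% of all genes, and Cxcr1 was lower, 1 of 49 beside 0.545%. In both directions this was 4 of 49 (8.16%) beside 2.72%. Against anakinra at 72 h, Cxcr2 and Ccl2 were higher, 2 of 49 beside 1.74% of all genes higher and 1.94% in both directions, with 5 at an unadjusted p under 0.05, beside 9.95%. Against sham at 72 h, Cxcr2, Cxcl1 and Ccl2 were higher, 3 of 49 (6.12%) beside 2.74% of all genes higher and 3.46% in both directions. At an unadjusted p under 0.05 there were 11, beside 13.6%. The comparisons with EPO at 72 h share the same 5 EPO arrays. With all 3 times averaged, EPO minus vehicle passed for Ccl6 and Ccl2, 2 of 49 beside 2.41%, with 18 at an unadjusted p under 0.05, beside 20.5%. Without the narrow arrays the same 2 genes passed, and 6 were at that p, beside 10.7%. No gene of the 49 passed in any other pairwise comparison, nor in the F tests of vehicle over time, EPO by time or anakinra by time.

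**Figure D1:**
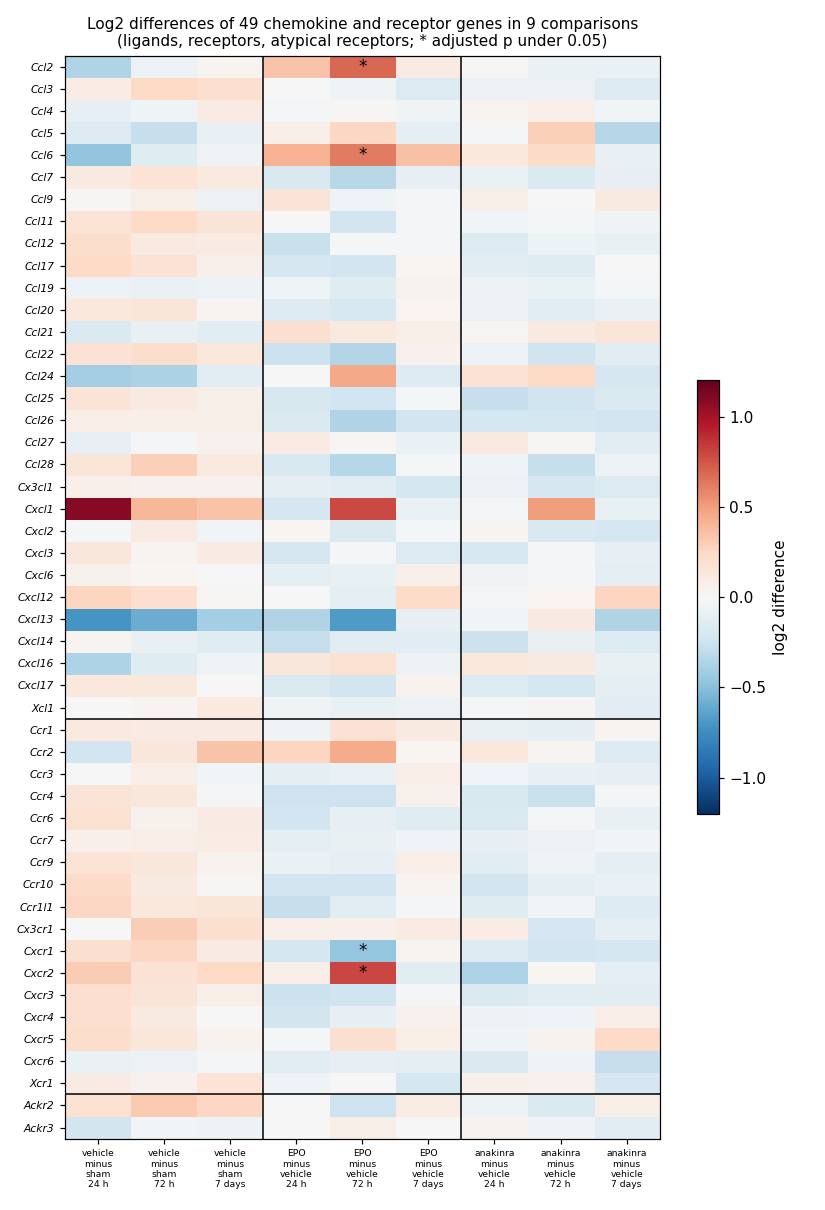
Log2 difference of each of the 49 genes (rows, ligands above receptors above the 2 atypical receptors) in vehicle minus sham, EPO minus vehicle and anakinra minus vehicle at 24 h, 72 h and 7 days (columns), with red for higher and blue for lower in the first group and an asterisk where the adjusted p was under 0.05. The 4 asterisks stand in the column of EPO minus vehicle at 72 h, for Ccl2, Ccl6, Cxcr1 and Cxcr2.

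Cxcl1, a neutrophil-attracting CXC ligand, was measured at 7.20, 6.67, 6.58, 7.08 and 7.20 in the sham livers. In vehicle livers at 24 h it read 7.52, 7.90, 8.80, 8.48 and 7.49. In EPO livers at 72 h it read 7.29, 9.05, 7.71, 7.33 and 9.33. Every vehicle array at 24 h and every EPO array at 72 h lay above every sham array. In vehicle livers at 24 h this was so for 1 of 49 genes beside 1.5% of all genes. Within the EPO group arrays 2 and 5 stood far above the others. Every anakinra array at 72 h, at 7.64, 7.58, 8.12, 8.29 and 7.61, also lay above every sham array. Anakinra was not compared with sham over all genes. The group mean was above that of sham in 9 of 9 injured groups, and 31 of the 45 injured arrays exceeded the highest sham array. EPO minus sham at 72 h was 1.198 (SE 0.32, 2.29-fold, limma adjusted p = 0.0218). Vehicle minus sham at 24 h was 1.09 (SE 0.32, 2.13-fold), with an adjusted p of 0.0911 that did not pass.

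The call of Cxcl1 in EPO minus sham at 72 h rested on few arrays. It was lost without EPO array 2 (0.97, adjusted p = 0.146) or 5 (0.90, 0.146), and without sham array 2 (1.13, 0.0731) or 3 (1.11, 0.0722), and when only both groups compared entered the fit (0.0962). The F test over 10 groups lost Cxcl1 without the narrow arrays (adjusted p = 0.0609), with a trended, robust prior (0.0670) and in 15 of 50 fits that each left out 1 array, with adjusted p from 0.0502 to 0.0728. Those arrays were EPO 2 at 72 h and 1 and 5 at 7 days, anakinra 1, 3 and 4 at 24 h, 3 at 72 h and 1, 2, 3 and 5 at 7 days, sham 2, 3 and 4, and vehicle 4 at 24 h. Anakinra livers at 24 h had a Cxcl1 mean of 8.02 ± 0.68 (SD, n = 5), beside 8.04 ± 0.58 in vehicle livers, and the difference was -0.02 with a 95% interval from -0.67 to 0.62. By 7 days the means were 7.29 ± 0.36 with vehicle, 7.21 ± 0.30 with EPO and 7.21 ± 0.26 with anakinra, beside 6.95 ± 0.30 in sham.

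**Figure D2:**
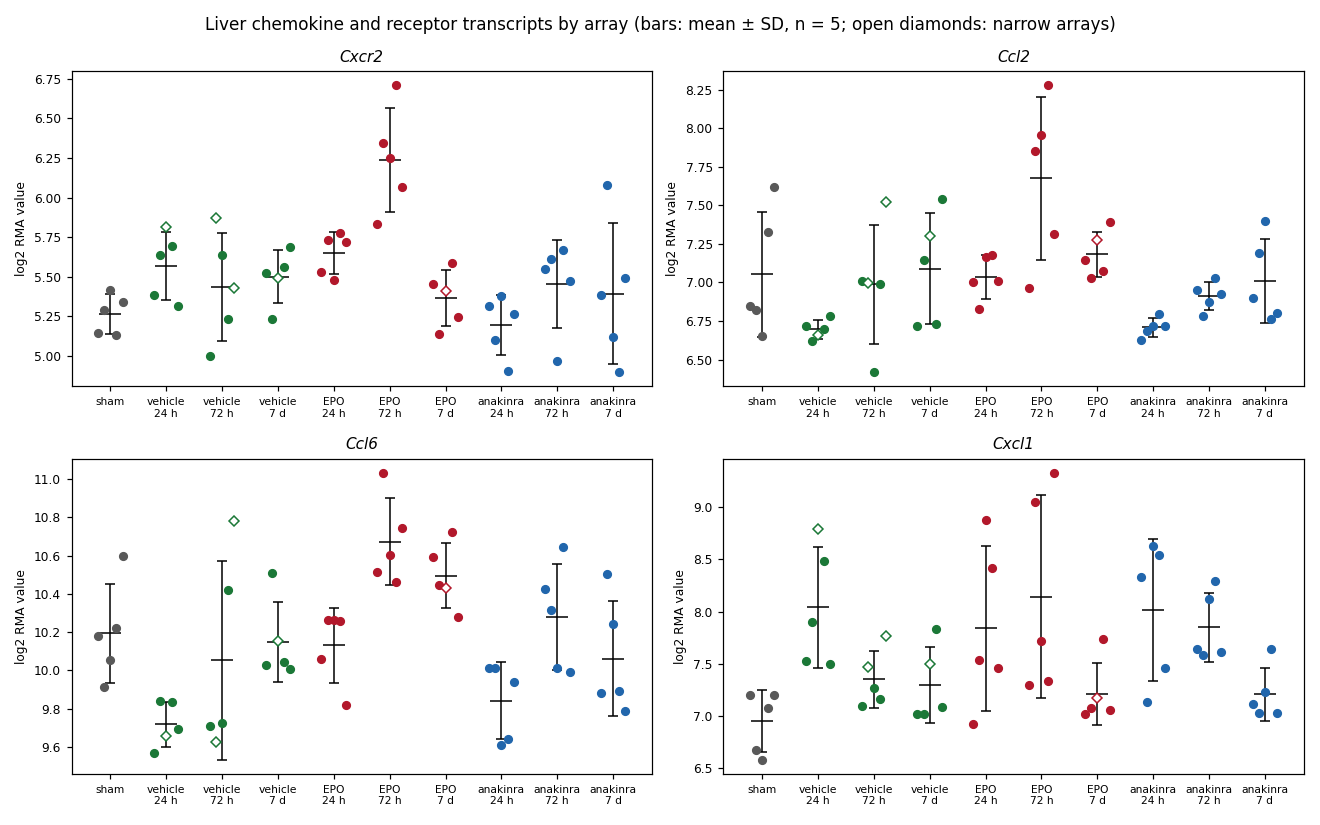
Log2 RMA value of Cxcr2, Ccl2, Ccl6 and Cxcl1 in each of the 50 arrays (vertical axis) by group (horizontal axis), with the mean ± SD of 5 arrays as bars and the 5 narrow arrays as open diamonds. EPO livers at 72 h had the highest mean of the 10 groups for all 4 genes, with Cxcr2 at 6.24, Ccl2 at 7.67, Ccl6 at 10.67 and Cxcl1 at 8.14.

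Cxcl2, which lies next to Cxcl1 in the genome and is a second neutrophil attractant, did not pass in any comparison. It read 5.45, 5.06, 5.39, 5.23 and 5.45 in sham livers and 5.58, 5.08, 5.14, 5.28 and 5.09 in EPO livers at 72 h, and these values overlapped. EPO minus sham at 72 h was -0.08 (SE 0.10). Over all 50 arrays Cxcl2 read 4.79 to 5.65, below the lowest array median of 6.66, and RMA can compress differences of such dim genes. A change in Cxcl2 may therefore have gone unseen. The promoters of both genes are shown because both hold matches to the same NF-kB pattern, while Cxcl1 alone of the pair passed. They are RefSeq sequences of the rat build GRCr8, from 250 bases before to 50 bases after the start of the gene, for Cxcl1 at chr14:17479272-17479571 and for Cxcl2 at chr14:17467206-17467505, both on the minus strand. Capitals mark matches, on either strand, of the pattern GGG, any 3 bases, then TTCC.
Cxcl1: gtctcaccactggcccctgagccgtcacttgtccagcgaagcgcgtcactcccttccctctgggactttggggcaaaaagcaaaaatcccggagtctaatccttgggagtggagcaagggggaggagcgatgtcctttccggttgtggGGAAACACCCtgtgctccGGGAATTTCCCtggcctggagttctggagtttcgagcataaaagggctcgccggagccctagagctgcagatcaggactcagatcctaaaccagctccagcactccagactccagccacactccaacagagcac
Cxcl2: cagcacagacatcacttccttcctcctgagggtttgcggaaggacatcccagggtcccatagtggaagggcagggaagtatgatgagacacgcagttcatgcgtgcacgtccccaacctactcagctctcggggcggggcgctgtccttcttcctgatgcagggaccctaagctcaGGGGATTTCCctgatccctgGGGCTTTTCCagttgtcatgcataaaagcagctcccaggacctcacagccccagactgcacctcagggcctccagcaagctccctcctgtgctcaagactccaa
Relative to the start, Cxcl1 held 3 matches, at -102, -84 and -83, of which the last 2 overlap and lie on opposite strands. Cxcl2 held 2 matches, at -74 and -54. The pattern occurred in 1471 of 27457 promoters (5.36%) of the same length and in 8 of the 38 promoters found for the 49 genes (21.1%), those of Ccl20, Ccl6, Ccl7, Ccl9, Ccr3, Cxcl1, Cxcl2 and Cxcl6. A match describes the letters only and was not tested as a binding site.

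Ccl2, the ligand of Ccr2 that draws monocytes, read 6.85, 6.82, 6.65, 7.33 and 7.62 in sham livers. In vehicle livers at 72 h it read 7.01, 7.00, 6.42, 6.99 and 7.52, in EPO livers 6.96, 7.85, 7.96, 8.28 and 7.32, and in anakinra livers 6.95, 6.78, 6.87, 7.03 and 6.92. EPO arrays 2, 3 and 4 lay above every vehicle and sham array, and EPO arrays 1 and 5 lay within the range of vehicle. The difference to vehicle was 0.69 (SE 0.18, 1.61-fold, limma adjusted p = 0.0182), to anakinra 0.76 (SE 0.18, adjusted p = 0.00748) and to sham 0.62 (SE 0.18, adjusted p = 0.0332). At 24 h Ccl2 read 7.01, 6.83, 7.16, 7.18 and 7.01 with EPO, and 6.72, 6.62, 6.66, 6.698 and 6.78 with vehicle. All 5 EPO arrays at 24 h lay above every vehicle array, as they did for 1 of 49 genes and 0.641% of all genes, and the difference of 0.34 (SE 0.18) did not pass (adjusted p = 0.469).

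The call of Ccl2 against vehicle at 72 h was lost without EPO array 2 (0.64, adjusted p = 0.0669), 3 (0.62, 0.0729) or 4 (0.54, 0.106) or vehicle array 3 (0.55, 0.0729), and when only both groups compared entered the fit (0.341). Against anakinra it was lost without EPO array 4 (0.61, adjusted p = 0.0710) and in the fit of both groups alone (0.103). Against sham it was lost without EPO array 2 (0.58, 0.116), 3 (0.55, 0.0987) or 4 (0.47, 0.155), without sham array 1 (0.57, 0.104), 2 (0.56, 0.120) or 3 (0.52, 0.140), in the fit of both groups alone (0.214) and where quantile normalization was repeated. The difference to vehicle without the narrow arrays was 0.87 (SE 0.20, adjusted p = 0.00898).

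Ccl7, which follows Ccl2 in the genome and also attracts monocytes, did not pass. It read 5.90, 6.48, 6.03, 6.07 and 6.32 in vehicle livers at 72 h and 6.20, 5.68, 5.87, 5.78 and 5.58 in EPO livers, a difference of -0.34 (SE 0.12, adjusted p = 0.112). The groups overlapped, and its vehicle arrays 2 and 5, the highest, were narrow arrays. Without them the difference was -0.18 (SE 0.11). Ccl11 and Ccl12, the next genes in this cluster, differed between EPO and vehicle at 72 h by -0.23 and -0.02 and did not pass. Ccr2, the receptor of Ccl2, read 7.25, 7.53, 7.17, 7.73 and 8.30 with vehicle and 7.39, 8.93, 8.01, 8.23 and 7.64 with EPO at 72 h. Its difference of 0.44 (SE 0.25) did not pass, nor did that to sham (0.58, SE 0.25, adjusted p = 0.243).

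Ccl6, a CC chemokine of myeloid cells, was higher with EPO than with vehicle at 72 h and with the times averaged. The averaged means were 10.43 with EPO and 9.97 with vehicle, on either side of the sham mean of 10.19. At 24 h the EPO mean, 10.13, was below that of sham. At 72 h Ccl6 did not pass against sham or anakinra, with means of 10.67 with EPO and 10.28 with anakinra. It read 9.71, 9.62, 9.72, 10.42 and 10.78 in vehicle livers at 72 h and 10.52, 11.03, 10.60, 10.46 and 10.74 in EPO livers. The groups overlapped through vehicle array 5 alone, a narrow array, and EPO array 2 was the only one above every vehicle array. The difference was 0.62 (SE 0.16, 1.54-fold, limma adjusted p = 0.0221). At 24 h it was 0.41 (SE 0.16, adjusted p = 0.442) and at 7 days 0.35 (SE 0.16, adjusted p = 0.979), neither of which passed. Averaged over the 3 times it was 0.46 (SE 0.09, 1.38-fold, adjusted p = 0.00199). That call was kept in 30 of 30 fits that each left out 1 array and under all 9 alternatives tried for it, with differences from 0.43 to 0.49 and adjusted p from 0.000787 to 0.00658 over the alternatives.

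The call of Ccl6 at 72 h alone was lost without EPO array 2 (0.53, adjusted p = 0.115) or 5 (0.60, 0.0537), without vehicle array 1 (0.53, 0.0935), 2 (0.51, 0.145) or 3 (0.54, 0.0652), and in the fit of both groups alone (0.321). It was 0.72 without the narrow arrays (SE 0.17, adjusted p = 0.0115). In vehicle livers at 24 h Ccl6 read 9.57, 9.84, 9.66, 9.83 and 9.70, all below the sham values of 10.18, 9.91, 10.05, 10.22 and 10.60. This was so for 1 of 49 genes beside 1.67% of all genes. The difference of -0.47 (SE 0.16) did not pass (adjusted p = 0.159). For Ccl2, EPO minus vehicle with the 3 times averaged was 0.37 (SE 0.10, adjusted p = 0.0336). That call was lost with only both treatments in the fit (0.0928) and in 11 of 30 fits that left out 1 array, with adjusted p from 0.0513 to 0.0688. The arrays left out in these were EPO 3 and 4 at 24 h, 2, 3 and 4 at 72 h and 5 at 7 days, and vehicle 3 at 24 h, 2 and 3 at 72 h and 1 and 4 at 7 days. The number of the 49 genes that passed with the times averaged was 9 without EPO array 1 at 72 h, 6 without EPO array 4 at 7 days, vehicle array 1 at 24 h or vehicle array 4 at 72 h, 5 without array 5 of vehicle at 24 h and 4 without array 2 of vehicle at 7 days. This number was 1, Ccl6, without 10 of the 11 arrays just named, and without vehicle array 3 at 72 h it was 2, Ccl6 and Ccr6.

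Ccl9, the gene next to Ccl6 and a related CC ligand, did not pass with EPO at 72 h. It read 12.77, 12.51, 12.78, 12.78 and 12.63 with vehicle and 12.43, 12.70, 12.71, 12.72 and 12.67 with EPO, a difference of -0.05 (SE 0.07, 95% interval from -0.19 to 0.10). All 5 EPO arrays at 24 h, from 12.77 to 12.83, lay above every sham array, as for 2 of 49 genes (Ccl9 and Cxcr2) and 1.66% of all genes, but the difference of 0.17 (SE 0.07) did not pass (adjusted p = 0.618). The promoters of this pair are shown for the same reason: both hold the NF-kB pattern, in capitals, and Ccl6 alone of the pair passed. They lie at chr10:68883317-68883616 for Ccl6 and chr10:68868828-68869127 for Ccl9 in GRCr8, both on the minus strand.
Ccl6: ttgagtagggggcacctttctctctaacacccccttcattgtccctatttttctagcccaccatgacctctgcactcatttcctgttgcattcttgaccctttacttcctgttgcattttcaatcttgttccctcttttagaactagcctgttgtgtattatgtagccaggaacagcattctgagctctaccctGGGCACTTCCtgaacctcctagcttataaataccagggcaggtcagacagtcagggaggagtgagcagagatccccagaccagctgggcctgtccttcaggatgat
Ccl9: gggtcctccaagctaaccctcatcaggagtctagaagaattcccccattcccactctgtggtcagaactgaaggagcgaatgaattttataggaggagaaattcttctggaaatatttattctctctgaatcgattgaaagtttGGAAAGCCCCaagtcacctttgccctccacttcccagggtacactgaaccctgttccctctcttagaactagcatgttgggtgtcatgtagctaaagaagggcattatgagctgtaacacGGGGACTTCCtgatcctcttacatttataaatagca
Ccl6 held 1 match, at -56, and Ccl9 held 2, at -106 and 15. A STAT pattern (TTCNNNGAA) was found in 8.68% of all promoters and in 4 of the 38, those of Ccl17, Ccl24, Ccl7 and Ccr6. A PU.1 pattern (GAGGAAGT) was found in 2.44% of all promoters and in 2 of the 38, those of Ccl24 and Xcr1. Neither was in the window of Cxcr2, Cxcl1 or Ccl6.

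**Figure D3:**
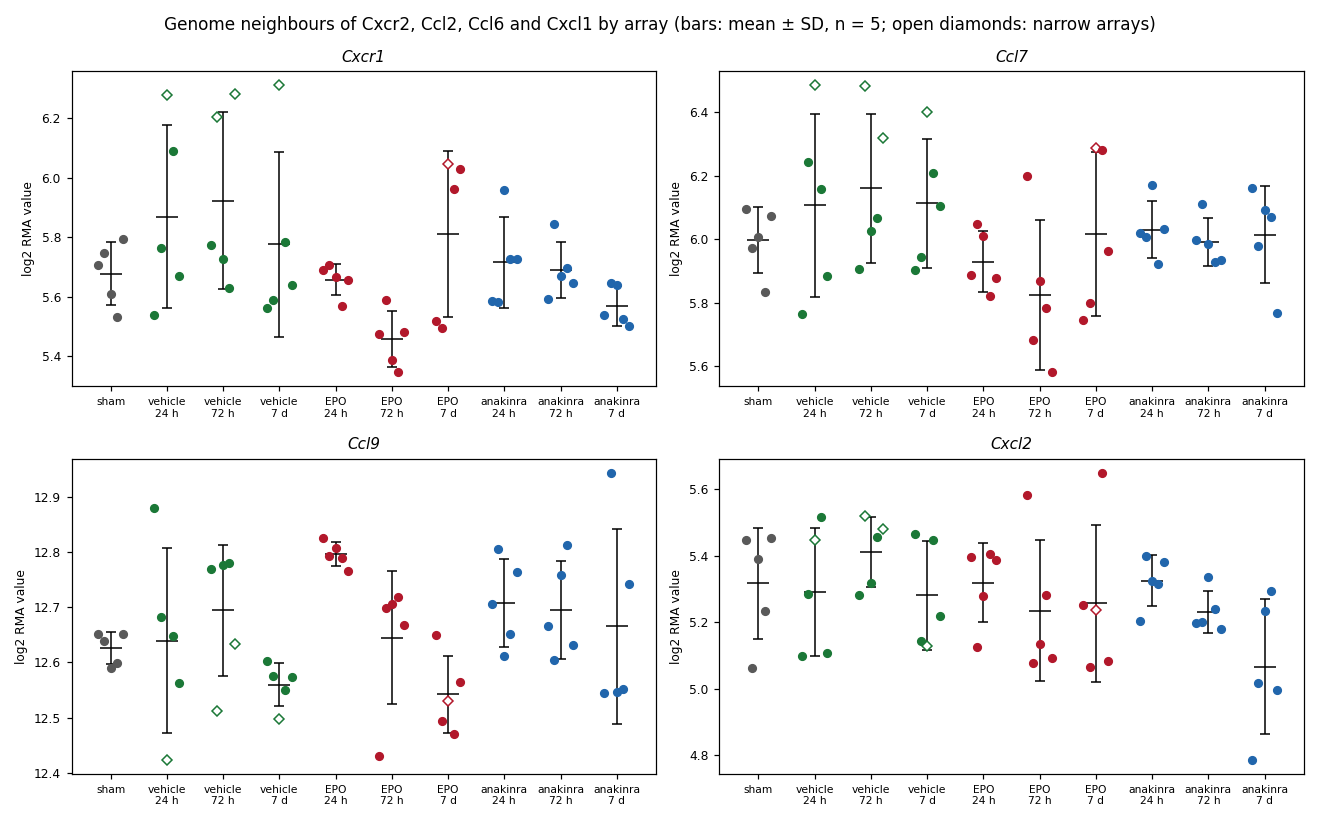
Log2 RMA value of Cxcr1, Ccl7, Ccl9 and Cxcl2, the genome neighbours of Cxcr2, Ccl2, Ccl6 and Cxcl1, in each of the 50 arrays (vertical axis) by group (horizontal axis), with the mean ± SD of 5 arrays as bars and narrow arrays as open diamonds. In EPO livers at 72 h the means were 5.46, 5.82, 12.64 and 5.23, and the highest Cxcr1 values of the vehicle groups were those of narrow arrays.

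Among the receptors, Cxcr2, which carries the neutrophil response to Cxcl1 and Cxcl2, rose in EPO livers at 72 h. It read 5.15, 5.29, 5.42, 5.13 and 5.34 in sham livers, 4.998, 5.87, 5.64, 5.24 and 5.43 with vehicle, 5.83, 6.35, 6.25, 6.71 and 6.06 with EPO, and 5.55, 5.61, 4.97, 5.67 and 5.47 with anakinra. All 5 EPO arrays lay above every sham and every anakinra array, the latter as for 1 of 49 genes and 1.48% of all genes, and 4 of 5 lay above every vehicle array. No gene of the 49 had all EPO arrays above all vehicle arrays at 72 h, beside 1.11% of all genes. The difference was 0.81 to vehicle (SE 0.16, 1.75-fold, limma adjusted p = 0.000979), 0.78 to anakinra (SE 0.16, 1.72-fold, 0.00140) and 0.97 to sham (SE 0.16, 1.96-fold, 3.93e-05). It kept its call in 10 of 10 fits that left out 1 array in each of these comparisons. The call against vehicle was lost in the fit of both groups alone (adjusted p = 0.0793), and without the narrow arrays it was 0.95 (SE 0.18, adjusted p = 0.00116).

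At the other times Cxcr2 did not pass. At 24 h it read 5.53, 5.73, 5.48, 5.78 and 5.72 with EPO, above all sham arrays and above all anakinra arrays, which lay between 4.91 and 5.38, as for 2 of 49 genes (Ccl2 and Cxcr2) and 0.283% of all genes, while vehicle arrays lay between 5.31 and 5.81. At 24 h EPO minus sham was 0.38 (SE 0.16, adjusted p = 0.560), and it passed in the fit of these 2 groups alone. At 7 days EPO minus vehicle was -0.13 (SE 0.16). The F test of EPO by time gave Cxcr2 an adjusted p of 0.0893 and so did not show that the EPO difference changed with time. It passed where quantile normalization was repeated, and without EPO array 1 or vehicle array 2 at 72 h.

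Cxcr1, the gene next to Cxcr2 and a receptor of neutrophils as well, fell in EPO livers at 72 h against vehicle. It read 5.77, 6.20, 5.73, 5.63 and 6.28 with vehicle at 72 h and 5.47, 5.59, 5.39, 5.35 and 5.48 with EPO, so that all EPO arrays lay below all vehicle arrays. The difference was -0.47 (SE 0.13, 1.38-fold lower, limma adjusted p = 0.0276). The 2 highest vehicle values were those of narrow arrays, and without them it was -0.25 (SE 0.10, adjusted p = 0.314), so the call did not stand. It was also lost without EPO array 3 (-0.45, 0.0701), 4 (-0.44, 0.0787) or 5 (-0.47, 0.05003), without vehicle array 2 (-0.40, 0.157) or 5 (-0.38, 0.126), with array weights (-0.32, 0.127) and in the fit of both groups alone (0.207). Against sham, at 5.71, 5.75, 5.61, 5.53 and 5.79, it was -0.22 (SE 0.13) and did not pass. All EPO arrays also lay below all anakinra arrays at 72 h, as for 1 of 49 genes and 0.862% of all genes. Probe sequences were not used here, and how far probes of related receptors respond to each other's RNA was not tested.

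**Figure D4:**
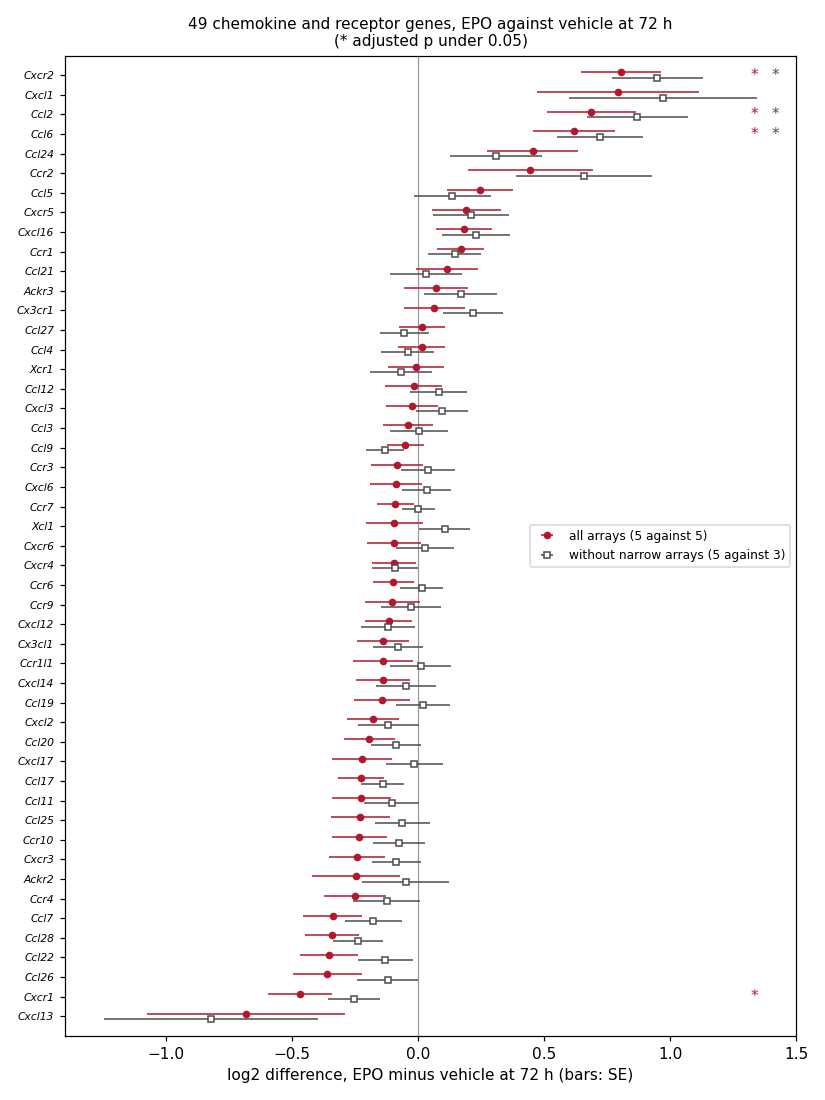
Log2 difference of each of the 49 genes between EPO and vehicle livers at 72 h (horizontal axis, bars are the SE), ordered from highest to lowest, with all arrays (filled circles, 5 against 5) and without narrow arrays (open squares, 5 against 3). Cxcr2, Ccl2 and Ccl6 carry asterisks for an adjusted p under 0.05 both ways, and Cxcr1 only with all arrays.

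The other genes leaned low in EPO minus vehicle at 72 h. With all arrays 34 of the 49 differences were below 0 and 15 above, with a median of -0.09 beside -0.03 over all genes. Leaving out the narrow arrays, 25 were below 0 and 24 above, with a median of -0.01 beside -0.03. At an unadjusted p under 0.05 there were 14 of 49 (28.6%), beside 20% of all genes, with all arrays, and 7 of 49 (14.3%), beside 10.3%, without the narrow arrays. With all arrays those below 0 were Cxcr1, Ccl26, Ccl22, Ccl28, Ccl7, Ccr4, Cxcr3, Ccr10 and Ccl17. Those above 0 were Ccl24, Ccl6, Ccl2, Cxcl1 and Cxcr2. Ccl28, an epithelial chemokine, read 5.85, 6.09, 5.80, 5.85 and 6.08 with vehicle and 5.77, 5.59, 5.60, 5.47 and 5.55 with EPO. These groups did not overlap, as for 2 of 49 genes and 0.572% of all genes that lay lower in EPO, and the adjusted p was 0.0697. Its 2 highest vehicle values were those of narrow arrays, and without them the difference was -0.24 (SE 0.10, adjusted p = 0.333). Without EPO array 1 at 72 h 8 of the 49 genes passed against vehicle, adding Ccl28, Ccl7, Cxcl1 and Cxcr3. Without vehicle array 4, 7 passed, adding Ccl22, Ccl26 and Ccl28. Without EPO array 2, 3 or 5 or vehicle array 2, 2 passed.

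Cxcl13, a B cell attractant, had the lowest difference of the 49 genes in EPO minus sham at 72 h, and it did not pass. It read 9.95, 9.22, 8.66, 9.27 and 9.09 in sham livers and 8.58, 7.11, 8.56, 8.05 and 7.48 in EPO livers, with all EPO arrays below all sham arrays. This was so for 1 of 49 genes beside 1.53% of all genes. The difference was -1.28 (SE 0.39, adjusted p = 0.0572), and it passed in the fit without the narrow arrays, none of which is in these groups. In the same comparison 4 of 49 genes lay wholly above sham, beside 2.71% of all genes. They were Cxcr2, Cxcl1, Cx3cr1 and Ccr1. Cx3cr1, the receptor of Cx3cl1 on monocytes and other mononuclear cells, read 7.06, 7.18, 7.22, 7.34 and 7.34 in sham livers and 7.44, 7.78, 7.35, 7.89 and 7.45 with EPO, a difference of 0.36 (SE 0.12, adjusted p = 0.0928). It passed without the narrow arrays (adjusted p = 0.0334) and with array weights (0.0370). Without EPO array 2 or sham array 2 or 3, 1 of the 49 genes, Cxcr2, passed against sham at 72 h.

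The remaining genes named by rank in the F test had group means within 0.50 of each other. Cxcl12, the ligand of Cxcr4 made by stromal and endothelial cells, had group means from 10.66 ± 0.15 in sham to 10.93 ± 0.13 in anakinra livers at 7 days (SD, n = 5). Its vehicle minus sham difference at 24 h was 0.26 (SE 0.09, adjusted p = 0.187). Cxcl16, the ligand of Cxcr6, had means from 7.84 ± 0.17 in vehicle livers at 24 h to 8.24 ± 0.22 in EPO livers at 72 h, beside 8.20 ± 0.17 in sham. Cxcl14 had means from 6.27 ± 0.06 in anakinra livers at 7 days to 6.62 ± 0.19 in vehicle livers at 24 h, beside 6.59 ± 0.05 in sham. Its EPO minus vehicle difference over the 3 times passed without EPO array 1 at 72 h (adjusted p = 0.0256), EPO array 4 at 7 days (0.0381) or vehicle array 5 at 24 h (0.0499). Ccl22, a ligand of Ccr4, had means from 6.23 ± 0.21 with EPO to 6.58 ± 0.35 with vehicle, both at 72 h, and its difference of -0.35 there was -0.13 without the narrow arrays. It passed without EPO array 4 (adjusted p = 0.0350), vehicle array 3 (0.0391) or vehicle array 4 (0.00908). Ccl5, a T cell and monocyte attractant, had means from 8.43 ± 0.21 in anakinra livers at 7 days to 8.86 ± 0.25 in anakinra livers at 72 h. None of these 5 genes passed in the main fit with all arrays. With array weights Cxcl12 passed in EPO minus sham at 24 h (limma adjusted p = 0.0159), where the main fit gave 0.351.

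Vehicle livers were set against sham livers to see how injured, saline-treated animals differed from intact ones. At 24 h limma called 0 of 49 genes, beside 0.827% of all genes, and at an unadjusted p under 0.05 there were 11 of 49 (22.4%), beside 15.9%. Those above 0 were Cxcl1 (1.09), Cxcl12, Ccr1l1, Ccl17, Ccr10, Cxcr4 and Ccr6, and those below 0 were Ccl6 (-0.47), Ccl24 (-0.42), Cxcl16 (-0.37) and Ccl2 (-0.36). Once the narrow arrays were left out, 5 of 49 were under that p, beside 9.34%. At 72 h and 7 days limma called 0 of 49, beside 0% of all genes. At an unadjusted p under 0.05 there were 6 and 1 of 49, beside 12.1% and 6.52% of all genes, and without the narrow arrays 1 and 0, beside 4.24% and 4.84%. Ccl28 at 72 h and Ccr1l1 at 7 days were the genes whose vehicle arrays lay above all sham arrays, 1 of 49 each, beside 1.16% and 0.538%. With the 3 times averaged limma called 0 of 49 beside 0.0551%, with 7 at an unadjusted p under 0.05, beside 15.7%, or 3 without the narrow arrays, beside 7.17%, and Cxcl1 was 0.61 (SE 0.26, adjusted p = 0.273).

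Anakinra was compared with vehicle, since it blocks the receptor of interleukin-1, an inducer of several chemokines. Limma called 0 of 49 genes at 24 h and 72 h, beside 0% of all genes each, 0 at 7 days, beside 0.0138%, and 0 with the times averaged, beside 0.0551%. At an unadjusted p under 0.05 there were 5, 5, 4 and 13 of 49, beside 4.25%, 10.7%, 7.62% and 21.4% of all genes. With the times averaged 40 of the 49 differences were below 0, with a median of -0.08 beside -0.02 over all genes. When the narrow arrays were left out, 29 were below 0, the median was -0.02 beside -0.01, and 0 of 49 had an unadjusted p under 0.05, beside 6.27%. At the single times 1, 1 and 5 of 49 then had such a p, beside 2.39%, 3.58% and 8.23%. With all arrays the lowest difference was that of Ccl25, a ligand of Ccr9 (-0.23, adjusted p = 0.129). Cxcr6 at 7 days was the 1 gene of 49 whose anakinra arrays lay below all vehicle arrays, beside 0.634% of all genes. Its difference of -0.27 did not pass (adjusted p = 0.542).

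EPO at 24 h and 7 days gave 0 calls of 49 against vehicle with limma, beside 0.0276% and 0.365% of all genes, with 12 and 3 at an unadjusted p under 0.05, beside 10.8% and 4.97%. Of the 12 at 24 h, 10 were below 0, with values from -0.28 for Cxcl14 to -0.20 for Ccl17, and Ccl6 (0.41) and Ccl9 (0.16) were above. Leaving out the narrow arrays left 3 and 2 of 49 at that p, beside 5.32% and 8.5%. Against sham 0 of 49 passed at 24 h, beside 0.434%, with 8 at an unadjusted p under 0.05, beside 5.99%. At 7 days 0 of 49 passed against sham, beside 2.86%, with 4 at that p, beside 18.3%, and the EPO arrays of Ccr1 and Cx3cr1 lay above all sham arrays, 2 of 49 beside 2.53%. Against anakinra 0 passed at 24 h, beside 0.0207%, and at 7 days, beside 0.441%, with 1 each at that p, beside 1.69% and 6.58%. The F tests called 0 of 49 for vehicle over time (beside 0.0689%), EPO by time (0.214%) and anakinra by time (0%), with 4, 4 and 1 at an unadjusted p under 0.05, beside 5.35%, 8.47% and 2.77%.

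Platelet chemokines that the naming rule leaves out were higher in the same livers. Of 7 measured chemokine genes with other names, 2 rose in EPO minus vehicle at 72 h, where 2.18% of all genes were higher, and 0 fell. Ppbp, which gives rise to a neutrophil-attracting platelet chemokine, rose by 1.66 (SE 0.19, 3.16-fold, limma adjusted p = 4.67e-08), and Pf4, platelet factor 4, by 0.74 (SE 0.18, adjusted p = 0.00896). Without the narrow arrays Ppbp kept its call (1.76, adjusted p = 1.34e-06) and Pf4 did not (0.63, 0.113). At 7 days Ppbp was higher with EPO (0.83, adjusted p = 0.0243), a call lost without the narrow arrays (0.87, 0.0666). Mif, a cytokine that also binds chemokine receptors, was lower than sham in vehicle livers at 24 h (-0.84, adjusted p = 0.0148) and in EPO livers at 72 h (-0.93, adjusted p = 0.00115).

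Genes around the receptors were counted in EPO minus vehicle at 72 h, where 2.18% of all genes were higher and 0.545% lower. A count of 1 in lists of this size is near that share. Of 12 other chemoattractant receptors 2 rose, C3ar1 (0.57) and C5ar1 (0.45), the receptors of the complement fragments C3a and C5a, and the list's median was -0.07 beside -0.03 over all genes. Of 33 genes of chemokine receptor signalling 4 rose, with a median of 0.16. They were Rgs18, a regulator of G protein signalling in platelets (1.21), Arrb1, beta-arrestin (0.37, and 0.33 with an adjusted p of 0.143 without the narrow arrays), Prkcb, a protein kinase C (0.46), and Plcb2, a phospholipase C (0.33). Of 17 leukocyte adhesion genes 3 rose, with a median of 0.31. These were Selplg, the selectin ligand of leukocytes (0.63), Itgb2, the shared subunit of their integrins (0.62), and Cd44 (0.46). Of 20 NF-kB and IL-1 induced genes 1 rose, Il18 (0.55), with a median of 0.12. No gene of these lists fell.

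Against anakinra at 72 h, 0 of the 12 chemoattractant receptors, 1 of the 33 signalling genes (Plcb2, 0.33), 3 of the 17 adhesion genes and 1 of the 20 NF-kB and IL-1 induced genes (Il1b, 0.50) were higher with EPO, beside 1.74% of all genes higher and 0.2% lower. Without the narrow arrays, none of which is in these groups, the fit gave 2, 4, 4 and 1, beside 2.2% higher. Against sham at 72 h the counts were 2, 7, 7 and 0, beside 2.74% higher and 0.717% lower, and without the narrow arrays 3, 11, 8 and 0, beside 3.47% higher. With the times averaged, EPO minus vehicle was higher for Il18 (0.47) and Il1a (0.46) and lower for Csf2 (-0.21) of the NF-kB and IL-1 list, beside 1.9% of all genes higher and 0.517% lower. The call of Csf2 was lost without the narrow arrays (-0.15, adjusted p = 0.252). It was also higher for Itgb2, Selplg and Itgal of the adhesion list. In vehicle minus sham at 24 h Jak3, a kinase of cytokine receptors, rose (0.69, adjusted p = 0.00696).

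Markers of other cell types differed in the same EPO livers at 72 h, where 2.18% of all genes were higher than with vehicle and 0.545% lower. Of 16 neutrophil markers 6 were higher than with vehicle and 0 lower, led by Mmp8 (2.23), Ngp (1.84), S100a9 (1.37) and S100a8 (0.71). The mean of the neutrophil list lay between 6.30 and 7.06 in EPO livers, 5.98 and 6.25 in vehicle livers and 5.93 and 6.03 in sham livers, and the EPO range lay above both others. Of the 5 EPO arrays, array 4 was highest and array 1 lowest both in the neutrophil list and in Cxcr2. This order was not particular to them. Ccl2 was also highest in array 4 and lowest in array 1, at 8.28 and 6.96. Array 4 had the widest spread of values of these 5 arrays, 2.16, and array 1 the narrowest, 2.07. What links these was not tested. Of 15 Kupffer cell and macrophage markers 10 were higher and 0 lower, among them Cd163 (0.78), Hmox1 (0.84), Vsig4 (0.76) and Mrc1 (0.61). Their mean lay between 9.53 and 9.84 with EPO, 8.70 and 9.50 with vehicle and 9.12 and 9.47 in sham.

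Of 16 erythroid precursor markers 13 were higher and 0 lower, with means of the list from 8.77 to 10.24 with EPO and from 7.10 to 8.23 with vehicle. Of 5 megakaryocyte and platelet markers 4 were higher and 0 lower, with means from 7.43 to 8.13 and from 7.03 to 7.19. Ppbp and Pf4 are among these markers. The neutrophil, Kupffer cell, erythroid and megakaryocyte counts were 7, 9, 12 and 3 without the narrow arrays. Of 12 monocyte and dendritic cell markers 1 was higher (Fcgr2b), of 24 lymphocyte and NK cell markers 3 (Il7r, Gzma and Nkg7), of 10 mast cell and eosinophil markers 1 (Prg2), of 11 liver endothelial markers 3 (Tie1, Oit3 and again Fcgr2b), of 14 stellate cell and fibroblast markers 2 (Hgf and Pdgfra), and of 8 cholangiocyte markers 1 (Dmbt1). Of 12 hepatocyte markers 0 passed, and of 16 markers of pancreas, muscle, adipose and mesothelium 1 was lower (Pnlip). The calls of Dmbt1 (0.59, adjusted p = 0.0745) and Pnlip (-0.25, 0.113) were lost without the narrow arrays, and the other counts in these smaller lists were the same. The part of these cells in the differences of Cxcr2, Ccl2 and Ccl6 was not tested.

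**Figure D5:**
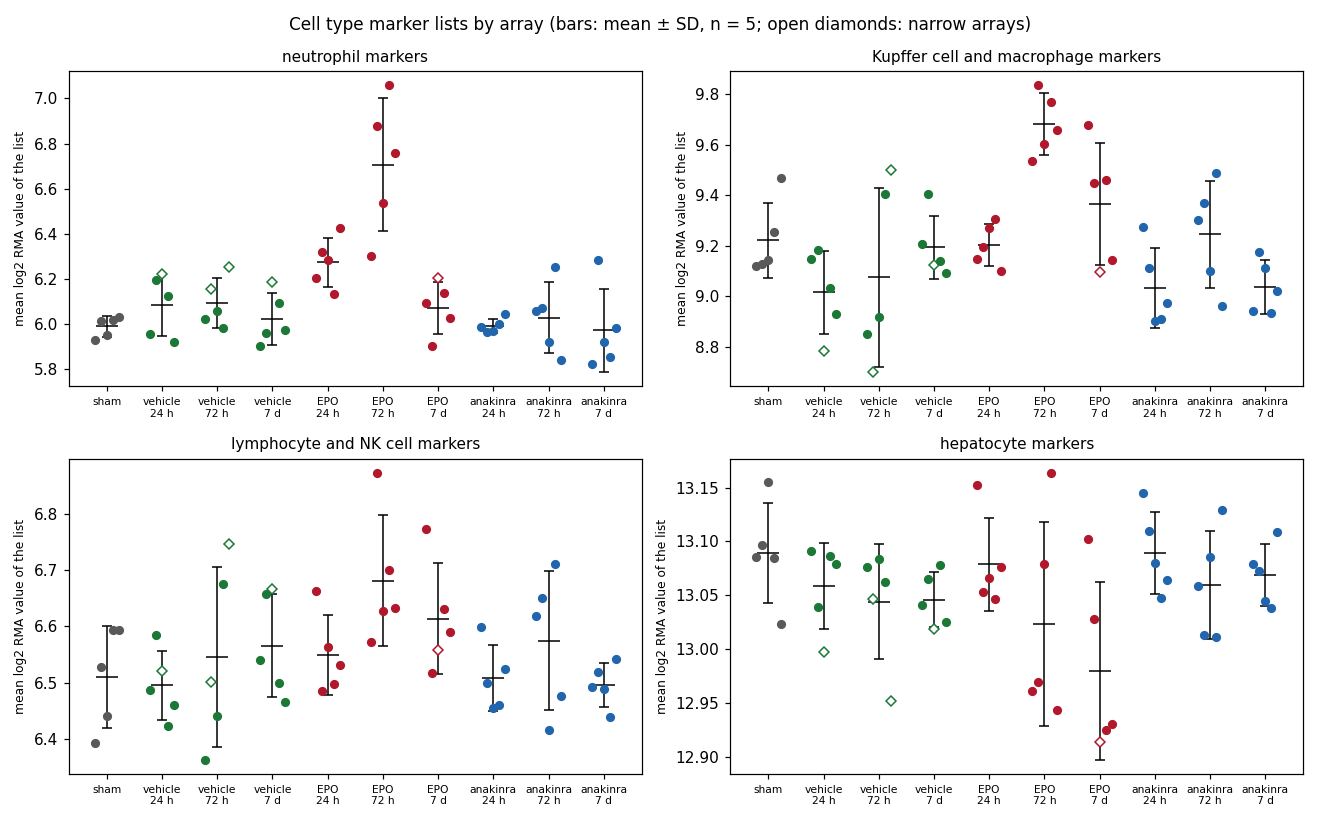
Mean log2 RMA value of the neutrophil, Kupffer cell and macrophage, lymphocyte and NK cell, and hepatocyte marker lists in each of the 50 arrays (vertical axis) by group (horizontal axis), with the mean ± SD of 5 arrays as bars and narrow arrays as open diamonds. In EPO livers at 72 h all 5 arrays lay above every vehicle array of that time for the neutrophil and Kupffer cell lists, and the hepatocyte list lay between 12.94 and 13.16.

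Of the 49 genes 26 sit next to another of them in the genome. Clusters include Ccl2, Ccl7, Ccl11 and Ccl12, the run Ccl5, Ccl9, Ccl6, Ccl3 and Ccl4, the run Cxcr6, Xcr1, Ccr1, Ccr3, Ccr1l1 and Ccr2, the ligands Ccl17, Cx3cl1 and Ccl22, and the pairs Cxcl2 with Cxcl1 and Cxcr2 with Cxcr1. In EPO minus vehicle at 72 h, 1 gene passed in each of the first 2 clusters, none in the run of Ccr2, and both genes of the Cxcr2 pair, in opposite directions, though Cxcr1 did not pass without the narrow arrays.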

How the data were processed

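Liver RNA of 50 rats was hybridised to Affymetrix Rat Gene 1.0 ST arrays. The deposited values are log2 expression values made by the authors with RMA in the oligo package, per the submitters' processing notes, with versions not given in the sources used here. RMA subtracts background, normalises quantiles over arrays and summarises probes, which can compress differences of dim genes. The table held 29214 probes, of which 15310 carried 1 gene symbol, 323 several and 13581 none, and the highest-mean probe per gene gave 14506 genes. No read counts exist for arrays, and precision is limited by how many there are. limma 3.58.1 in R 4.3.3 (lmFit, eBayes) was fitted with 1 mean per group over all 50 arrays, with 40 residual degrees of freedom, and checked on simulated data. P-values are two-sided, moderated and adjusted by Benjamini-Hochberg over all genes within each of 18 comparisons and 4 F tests. They set differences of group means against the spread between animals, pooled over all groups in the fit. Genes named in full are those that passed in any of these and the 8 next by F test. Lists name up to 4 genes by p. Settings tried are array weights, a trended and robust prior, only the groups compared, median centring, no dim genes, probe means, the replicate block, no narrow arrays, repeated quantile normalization and leaving out each array. The members, the 17 lists and the alternatives were chosen with earlier results of these data known. Ccl28, Cxcl13, Ccr1, Ccl7, Cxcl2, Cxcr6 and Ccl25 were named after their values were seen.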

Additional observations from a re-analysis of the deposited data

Results flagged for a closer look

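Arrays that lay far from the other 4 of their group were looked for in the 13 genes named in full, and 5 of 130 groups had one, where chance alone gives about 1 in 20. Ccl6 read 10.51 in vehicle array 2 at 7 days, with the others from 10.01 to 10.15. Cxcl1 read 7.735 in EPO array 4 at 7 days, with the others from 7.012 to 7.17. Cxcr2 read 4.971 in anakinra array 3 at 72 h, with the others from 5.473 to 5.671. Ccl5 read 9.124 in vehicle array 4 at 72 h, with the others from 8.357 to 8.566. Ccl9 read 12.43 in EPO array 1 at 72 h, with the others from 12.67 to 12.72.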

How the results depend on the processing

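Counts of the 49 genes that passed moved under some alternatives. In EPO minus vehicle at 72 h the 4 became 0 with only the groups compared in the fit and 2 without dim genes, a filter that kept 18 of the 49 genes and dropped Cxcr2 and Cxcr1. In EPO minus anakinra at 72 h the 2 became 1 under each of these settings. In EPO minus sham at 72 h the 3 became 7 with array weights and 5 without the narrow arrays. In EPO minus sham at 24 h the 0 became 4 with array weights and 1 with only the groups compared. In EPO minus vehicle over the 3 times the 2 became 1 with only the groups compared. The F test over 10 groups called 7 with array weights in place of 4, and the F test of EPO by time 1 where quantile normalization was repeated. With 1 array left out at a time the counts ranged from 2 to 8 for EPO minus vehicle at 72 h, 1 to 2 for EPO minus anakinra at 72 h, 1 to 4 for EPO minus sham at 72 h, 1 to 9 for EPO minus vehicle over the 3 times, 0 to 1 for EPO by time and 3 to 4 over the 10 groups. The 1255 values under the alternatives were counts, F values and differences of the genes named in full, where they passed or had their smallest p. Counts and F values have no direction, and none of those differences was reversed. Differences of other genes were, since 34 of the 49 lay below 0 in EPO minus vehicle at 72 h and 25 without the narrow arrays. The causes of these moves were not tested, except that fewer genes or arrays entered the fits named so. In 0 of the 15 comparisons did every same-numbered pair of arrays deviate together with a correlation over 0.1. In EPO minus vehicle at 7 days and in anakinra minus vehicle at 24 h, 4 of 5 pairs did. No pairing is stated for the replicate numbers, and they were not taken to pair animals. Pairs with different numbers were not looked at, so this check cannot exclude a pairing. With the replicate block the counts were the same, 4, 2 and 3 in the EPO comparisons at 72 h. Counts over all genes that moved by over 1.5 times included these. With array weights vehicle minus sham went from 120 to 267 at 24 h, 0 to 5 at 72 h, 0 to 2 at 7 days and 8 to 42 over the times. EPO minus vehicle went from 4 to 23 at 24 h, anakinra minus vehicle from 2 to 20 at 7 days and 8 to 44 over the times, and EPO minus anakinra from 3 to 12 at 24 h and 281 to 532 at 72 h. EPO minus sham went from 63 to 404, 502 to 1011 and 415 to 875 at the 3 times. The F tests went from 823 to 2145 over groups, 10 to 62 for vehicle and 31 to 111 for EPO by time. With only the groups compared, vehicle minus sham became 48 at 24 h and 3 over the times, EPO minus vehicle 0 at 24 h, 53 (from 395) at 72 h and 166 (from 350) over the times, anakinra minus vehicle 0 at 7 days and 1 over the times, EPO minus anakinra 7 and 76 at 24 h and 72 h, EPO minus sham 163, 302 and 779, and the F tests of vehicle and EPO 3 and 13. Median centring gave 37 and 276 for EPO minus sham at 24 h and 7 days, and no dim genes gave 232 for EPO minus vehicle at 72 h. Without the narrow arrays, vehicle minus sham at 24 h became 79, EPO minus sham at 24 h 97, EPO minus vehicle 2 at 24 h and 233 over the times, and EPO by time 20. Anakinra minus vehicle at 7 days became 0 and over the times 0 without the narrow arrays, and over the times 4 with centring, 5 with the robust prior and 14 with repeated quantile normalization. With 1 array left out, the counts ran from 205 to 1520 for EPO minus vehicle at 72 h and 225 to 1040 over the times, both highest without EPO array 1 at 72 h. They ran from 18 to 50, 279 to 681 and 147 to 665 for EPO minus sham at the 3 times, 56 to 151 for vehicle minus sham at 24 h, 177 to 398 for EPO minus anakinra at 72 h, 21 to 87 for EPO by time, 4 to 23 for vehicle over time and 0 to 39 for anakinra minus vehicle over the times.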
